A study of Rattus norvegicus with 27 samples.

Results

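The genes followed here are 10 protein-coding genes of the mitochondrial genome, chosen by Ensembl rat gene ID out of the 32753 IDs in the count table. They are Nd1 (ENSRNOG00000030644), Nd2 (ENSRNOG00000031033), Nd3 (ENSRNOG00000033615), Nd4 (ENSRNOG00000029707) and Nd5 (ENSRNOG00000029971) of complex I, Cytb (ENSRNOG00000031766) of complex III, Cox1 (ENSRNOG00000034234), Cox2 (ENSRNOG00000030371) and Cox3 (ENSRNOG00000030700) of complex IV, and Atp6 (ENSRNOG00000031979) of complex V. All 10 IDs are in the table. The symbols came with the choice of IDs, and the table itself holds IDs alone, so the symbols could not be checked against the data.

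The respiratory chain of the inner mitochondrial membrane passes electrons from NADH to oxygen and pumps protons, and ATP synthase uses the resulting gradient to make ATP. Most subunits are encoded in the nucleus, but a small core set is encoded by the mitochondrial DNA, which is present in many copies per cell. These genes lack introns and lie close together on a circular genome, where the heavy-strand genes are copied into long precursor RNAs that are cut at intervening transfer RNAs. Transcripts from the same precursor can still reach different levels, because they differ in stability after cutting.

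The series profiled, by RNA-seq in 27 libraries, primary fibroblasts taken from the lungs of outbred Sprague-Dawley rats. The count table's column names mark every library as WT and as a monoculture. Cells selected on magnetic beads for CD90, the Thy-1 surface antigen, were kept on polydimethylsiloxane (PDMS, a soft silicone of 3 to 5 kPa) or on culture plastic, both under a coat of collagen I (rat tail, 38 µg/ml), in MucilAir medium. The groups are PDMS day 2, PDMS day 4, PDMS day 7 and PDMS day 14 with 4 libraries each, Plastic day 4 and Plastic day 14 with 4 each, and Plastic day 7 with 3. The labels name no animal, isolation or culture behind a library, and give neither age nor sex, so p-values measure the spread between libraries, part of which may be technical. Every group shares the same cell source, coating and medium, and there is no freshly isolated, uncultured control.

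Each library held between 17.3 and 25.3 M counts, where M stands for mega. The 2 pairs Plastic day 4 replicates 1 and 2 and Plastic day 14 replicates 2 and 3 were closer to each other than any other pair of their groups, with a spread between genes beyond counting noise of 0.068 for the day 4 pair and 0.066 for the day 14 pair on the natural log scale, against 0.139 to 0.510 in the 37 other pairs. Their differences still exceeded counting noise, which does not tell whether the libraries of a pair came from the same culture. Each library was kept, and an alternative sums the pairs. Markers of fibroblasts and of other lung cell types, listed as symbols, could not be looked up by ID, so the labelled cell type was not checked and the part of other cells in any difference was not tested.

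Of the 10 members, 9 were counted in depth and 1 was nearly empty. The 9 held from 1183 counts, the lowest library of Nd3, to 206704 counts, the highest library of Cox1. The row given as Nd4 held 0 counts in 24 of 27 libraries and 6 counts in all: 3 in PDMS day 2 replicate 2, 1 in Plastic day 4 replicate 3 and 2 in Plastic day 7 replicate 3. At these depths a count of 0 allows a level of up to 0.12 to 0.18 CPM (counts per M of the TMM-scaled library size, from 3 counts per library), where the other members of complex I stood at 59.7 CPM or more. The Nd4 row therefore did not pass the filter on low counts and was not tested, and nothing about the Nd4 transcript is read from it. The limit covers counting error only.

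Together the members took a similar part of the RNA in most groups. Their summed share ran from 1.22% to 2.31% of all counts, with a median of 1.93% over the 27 libraries. Counting error is small beside this range, as the widest 95% Wilson interval of a single library spans 0.014 percentage points. In bulk libraries a different share can come from fewer or more mitochondrial transcripts per cell or from a different mix of cells, and these cannot be told apart.

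By library, in the order of replicates, the PDMS shares were 2.03%, 2.27%, 1.84% and 2.12% for day 2, then 1.22%, 2.11%, 1.63% and 1.77% for day 4, then 2.10%, 2.14%, 2.05% and 2.04% for day 7, and finally 1.77%, 1.79%, 1.66% and 2.31% for day 14. The plastic shares were 2.00%, 1.78%, 1.98% and 1.71% for day 4, then 1.93%, 1.73% and 1.81% for day 7 (replicates 1, 3 and 4), and finally 2.05%, 1.89%, 2.04% and 1.76% for day 14. PDMS day 4 replicate 1 was the lowest library of the series and PDMS day 14 replicate 4 the highest. PDMS day 7 was the tightest group and PDMS day 4 the widest, with SDs of 0.045 and 0.369 percentage points.

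Ordered by their mean summed share, the groups stood at 2.08% ± 0.05 for PDMS day 7, 2.07% ± 0.18 for PDMS day 2, 1.94% ± 0.14 for Plastic day 14, 1.88% ± 0.29 for PDMS day 14, 1.87% ± 0.14 for Plastic day 4, 1.82% ± 0.10 for Plastic day 7 and 1.68% ± 0.37 for PDMS day 4 (SD; 3 libraries in Plastic day 7 and 4 in every other group). Each group's libraries overlapped with those of its neighbour in this order. Between substrates the libraries did not overlap at day 7, where PDMS ran from 2.04% to 2.14% and plastic from 1.73% to 1.93%. With TMM-scaled library sizes as the denominator that gap closed to 2.04% ± 0.03 on PDMS and 1.94% ± 0.23 on plastic, and the groups overlapped. The order changed elsewhere too, with Plastic day 14 highest at 2.14% ± 0.11, PDMS day 2 at 1.90% ± 0.10 below 4 other groups, and PDMS day 4 still lowest at 1.59% ± 0.32. No p is given for the summed share, which is a score over chosen genes.

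**Figure D1:**
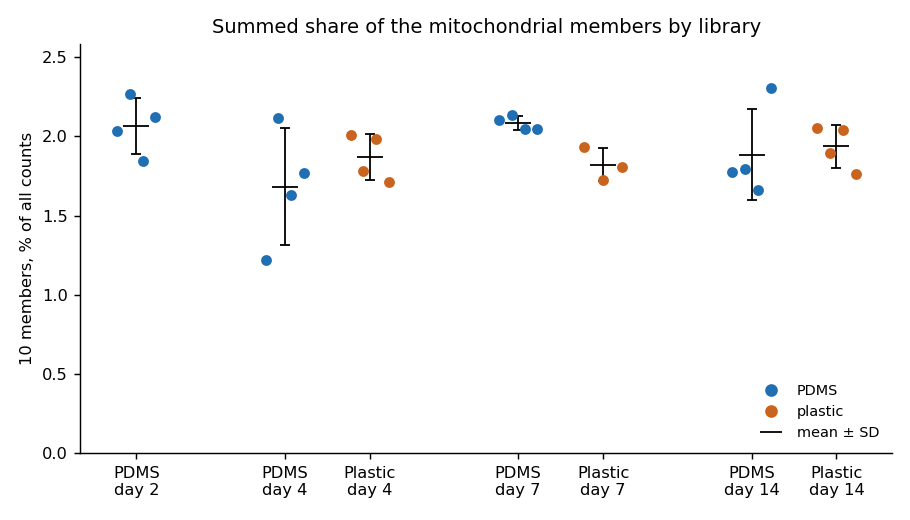
Percent of all counts in the 10 mitochondrial members (vertical axis, from 0) for each library of the 7 groups, with days from left to right and PDMS left of plastic. Points are libraries and bars are means ± SD. All libraries lie between 1.22% and 2.31%, and PDMS day 4 replicate 1 is the lowest point.

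No member was called between PDMS and plastic at any of the shared days. In the day 4 libraries, 0 of 9 tested members passed (edgeR quasi-likelihood test, Benjamini-Hochberg adjusted p under 0.05 over 14258 genes), and 0% of all genes passed. In the day 7 libraries 0 of 9 passed beside 0.849% of all genes in either direction, and in the day 14 libraries 0 of 9 beside 0% of all genes. DESeq2 called 0 members on each of these days, as did limma-voom. At an unadjusted p under 0.05 there were, with edgeR, 2 members for day 4, 1 for day 7 and 0 for day 14. Over all genes the same unadjusted limit gave 1246, 2532 and 1266 for days 4, 7 and 14 with edgeR, while DESeq2 called 38, 766 and 114 genes after adjustment and limma-voom 0, 42 and 2.

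The fitted log2 differences between substrates were at most 0.38 in size, and none was called. At day 4 the log2 fold change of PDMS over plastic ran from -0.31 ± 0.14 for Nd1 (SE; adjusted p = 0.543 with edgeR) to 0.08 ± 0.14 for Nd3, with 8 of 9 below 0. At day 7 it ran from -0.01 ± 0.15 for Nd1 to 0.38 ± 0.15 for Nd3 (edgeR adjusted p = 0.188), with 8 of 9 above 0. At day 14 it ran from -0.22 ± 0.14 for Nd1 (edgeR adjusted p = 0.692) to -0.04 ± 0.15 for Cox3, with 9 of 9 below 0. The members' medians were -0.23, 0.06 and -0.15 at days 4, 7 and 14, and the medians of all tested genes were 0.00, 0.01 and 0.00. Scaling by library size alone put the median of all genes at 0.06, 0.13 and 0.11, and the members' values then lay below 0 in 8 of 9 at day 4, in 0 of 9 at day 7 and in 6 of 9 at day 14, where Cox3 turned to 0.06.

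Nd3 had the largest of these differences at day 7. This small subunit of the membrane arm of complex I stood at 94.2, 107, 71.5 and 99.8 CPM on PDMS day 7 (replicates 1 to 4), against 71.3, 72.9 and 70.5 CPM on Plastic day 7 (replicates 1, 3 and 4). PDMS replicate 3 lay among the plastic libraries, so the groups overlapped. Nd3 is also the least counted of the tested members, with 1183 to 2385 counts per library.

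On PDMS, edgeR called Nd1 and Nd2, membrane-arm subunits of complex I, lower at day 4 and at day 14 than at day 2. At day 4 these were the 2 of 9 members called lower, beside 4.85% of all genes. Nd1 stood at 612, 1132, 803 and 934 CPM on PDMS day 4, against 1214, 1318, 1072 and 1213 CPM on PDMS day 2 (replicates 1 to 4 of each). Only PDMS day 4 replicate 2 reached into the day 2 range. The log2 fold change was -0.47 ± 0.14 (SE), a fold of 0.72 (edgeR adjusted p = 0.0409).

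Nd2 stood at 922, 1396, 1098 and 1067 CPM on PDMS day 4, against 1519, 1852, 1249 and 1513 CPM on PDMS day 2 (replicates 1 to 4 of each). Again day 4 replicate 2 lay inside the day 2 range, above day 2 replicate 3. The log2 fold change was -0.45 ± 0.13 (SE; edgeR adjusted p = 0.0351). The other 7 tested members also had values below 0 in this step, from -0.16 ± 0.14 for Nd3 to -0.36 ± 0.12 for Nd5, and edgeR called none of the 7. DESeq2 called Nd5 (adjusted p = 0.0120) and Cox2 (adjusted p = 0.0485) as well, where it called 2411 genes in either direction and edgeR 1428. The members' median was -0.23, and that of all tested genes -0.01.

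Nd5 is a further membrane-arm subunit of complex I. It stood at 457, 596, 567 and 674 CPM on PDMS day 4, against 693, 678, 736 and 830 CPM on PDMS day 2 (replicates 1 to 4 of each), and these groups did not overlap, although its test did not pass (edgeR adjusted p = 0.0606). Cox2 of complex IV did not overlap in this step either, at 1360 to 2016 against 2035 to 2240 CPM (edgeR adjusted p = 0.149). How many of all genes separate between these groups was not counted. With the replicate number as a block over all 27 libraries, edgeR gave Nd5 a log2 fold change of -0.36 and an adjusted p of 0.0491, which passes. Nd1 then had an adjusted p of 0.0339 and Nd2 of 0.0360. The block sets 1 replicate effect for all 7 groups, so it is not a paired test of these 2 groups alone. In edgeR Nd5 was also called with DESeq2's size factors (adjusted p = 0.0438) and under library size scaling (adjusted p = 0.0340). Nd5 was called in none of the 8 fits with 1 library left out (edgeR adjusted p from 0.0570 to 0.223). Nor was it called by limma-voom or in an edgeR fit of these groups alone.

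The calls of Nd1 and Nd2 lay close to the threshold. The Nd1 call ended without PDMS day 2 replicate 1 (edgeR adjusted p = 0.145), 2 (0.0812) or 3 (0.0681), or without PDMS day 4 replicate 1 (0.163), 3 (0.0986) or 4 (0.0845). The Nd2 call ended without PDMS day 2 replicate 1 (edgeR adjusted p = 0.119) or 2 (0.0821), or PDMS day 4 replicate 1 (0.129), 3 (0.0750) or 4 (0.100). Neither was called in a fit of these groups alone (edgeR adjusted p = 0.219 for Nd1 and 0.204 for Nd2). The Nd1 call also ended with the closely alike libraries summed (edgeR adjusted p = 0.0539) and with no filter on low counts (0.0615). Without the low library PDMS day 4 replicate 1 the log2 fold changes were -0.31 for Nd1 and -0.35 for Nd2. In the other fits in which a call ended for want of 1 library the fold changes stayed near their size with all libraries, at -0.51 to -0.43 for Nd1 and -0.44 to -0.38 for Nd2, and with these groups alone they were -0.49 and -0.47.

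At day 14 on PDMS the same members were below day 2. Nd1 and Nd2 were the 2 of 9 members called lower, beside 27.3% of all genes, so the members' count was close to that background. Nd1 stood at 910, 898, 868 and 1082 CPM on PDMS day 14, against the day 2 values above, and its fitted log2 difference was -0.36 ± 0.14 (SE; adjusted p = 0.0383 with edgeR). Nd2 stood at 1147, 1051, 1158 and 1420 CPM, and its fitted log2 difference was -0.36 ± 0.13 (SE; adjusted p = 0.0246 with edgeR). For both genes PDMS day 14 replicate 4 was the highest of its group and the one library that reached into the day 2 range.

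The other members were not called by edgeR over this interval and their values lay on both sides of 0. They ran from -0.26 ± 0.14 for Nd3 (SE; edgeR adjusted p = 0.127) to 0.20 ± 0.15 for Cytb, and Cox1 had a value of 0.13 ± 0.17. The members' median was -0.03, as small as the median of all tested genes at -0.05. Scaling by library size instead moved the median of all genes to -0.20 and made rises 35.9% of the genes called in place of 47%, with 8 of 9 members below 0 in place of 6, while Nd3 was called as well (-0.42, edgeR adjusted p = 0.0266) and Cox1 turned to -0.02. With 1 library left out, the Nd1 call held only without PDMS day 14 replicate 4, and ended without any other library (log2 fold changes of -0.37 to -0.31, edgeR adjusted p from 0.0571 to 0.115). The Nd2 call held without PDMS day 2 replicate 3 or PDMS day 14 replicate 4, and ended without any of the 6 others (log2 fold changes of -0.35 to -0.28, edgeR adjusted p from 0.0555 to 0.0849). The comparisons with PDMS day 2 share its libraries.

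Between day 4 and day 14 on PDMS the member called by edgeR was Cox2, the copper-binding subunit of cytochrome c oxidase that receives electrons from cytochrome c. It was 1 of 9 called higher, beside 13.4% of all genes, so the members' count was close to that background. Cox2 stood at 2211, 2136, 2042 and 2694 CPM on PDMS day 14, against 1360, 2016, 1757 and 1944 CPM on PDMS day 4 (replicates 1 to 4 of each). The groups did not overlap. The log2 fold change was 0.36 ± 0.13 (SE; edgeR adjusted p = 0.0407). PDMS day 4 was the low group, as Cox2 averaged 2156 ± 90 CPM at PDMS day 2 and 2284 ± 36 CPM at PDMS day 7 (SD, n = 4 each). From PDMS day 2 to day 14 its log2 fold change was 0.07 ± 0.13 (SE; edgeR adjusted p = 0.647).

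The Cox2 call depended on single libraries of both groups. It ended without PDMS day 4 replicate 1 (log2 fold change 0.27, edgeR adjusted p = 0.131) or 3 (0.36, 0.0758), and without PDMS day 14 replicate 1 (0.37, 0.0604) or 4 (0.27, 0.139). It also ended when library size replaced TMM (0.24, edgeR adjusted p = 0.148), and with the replicate number as a block (0.36, 0.0530). Cytb, the membrane subunit of complex III, had a log2 fold change of 0.38 ± 0.15 (edgeR adjusted p = 0.0699) and Cox1, the catalytic subunit of cytochrome c oxidase, 0.36 ± 0.17 (edgeR adjusted p = 0.119), and neither was called by edgeR, while DESeq2 called Cytb (adjusted p = 0.0423) beside Cox2. Nd1 at 0.11 ± 0.14, Nd2 at 0.09 ± 0.13 and Nd3 at -0.10 ± 0.14 lay near 0, and under library size scaling Nd1 and Nd2 turned to -0.01 and -0.03.

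On plastic no member was called from day 4 to day 14, where 32.6% of all genes were called in either direction. The largest value was that of Cox1 at 0.28 ± 0.17 (SE; edgeR adjusted p = 0.220), and Cox2 had 0.26 ± 0.13 (edgeR adjusted p = 0.119). Cox2 stood at 2689, 2396, 2463 and 2429 CPM on Plastic day 14, against 2250, 1799, 2369 and 1902 CPM on Plastic day 4 (replicates 1 to 4 of each). The 4 later libraries all lay above the earlier ones. Without Plastic day 4 replicate 3, Cox2 was called (0.37, edgeR adjusted p = 0.0446). Nd1 at 0.03 ± 0.14 and Nd2 at 0.07 ± 0.13 were near 0, and under library size scaling they turned to -0.13 and -0.10, with 4 of 9 members below 0 in place of 1. DESeq2 and limma-voom each called 0 members, beside 5277 and 4319 of all genes. An unadjusted p under 0.05 was reached by 0 members in edgeR, by 2 in DESeq2 and by 1 in limma-voom. Over all genes that unadjusted limit was reached by 6271, 6815 and 6201 in the same order of tools.

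Whether the day 4 to day 14 course differed between PDMS and plastic was tested as an interaction. It called 0 of 9 members and 0% of all genes with edgeR, and 0 members with either of the other tools, and 0 members had an unadjusted p under 0.05 with edgeR. Over all genes 971 reached that unadjusted limit with edgeR, and DESeq2 called 4 and limma-voom 0. The log2 difference of PDMS minus plastic ran from -0.28 ± 0.20 for Nd3 to 0.25 ± 0.17 for Nd5, and was 0.10 ± 0.18 for Cox2. With SEs of 0.17 to 0.24, differences of this size between the courses could not be told from 0 with these libraries.

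**Figure D2:**
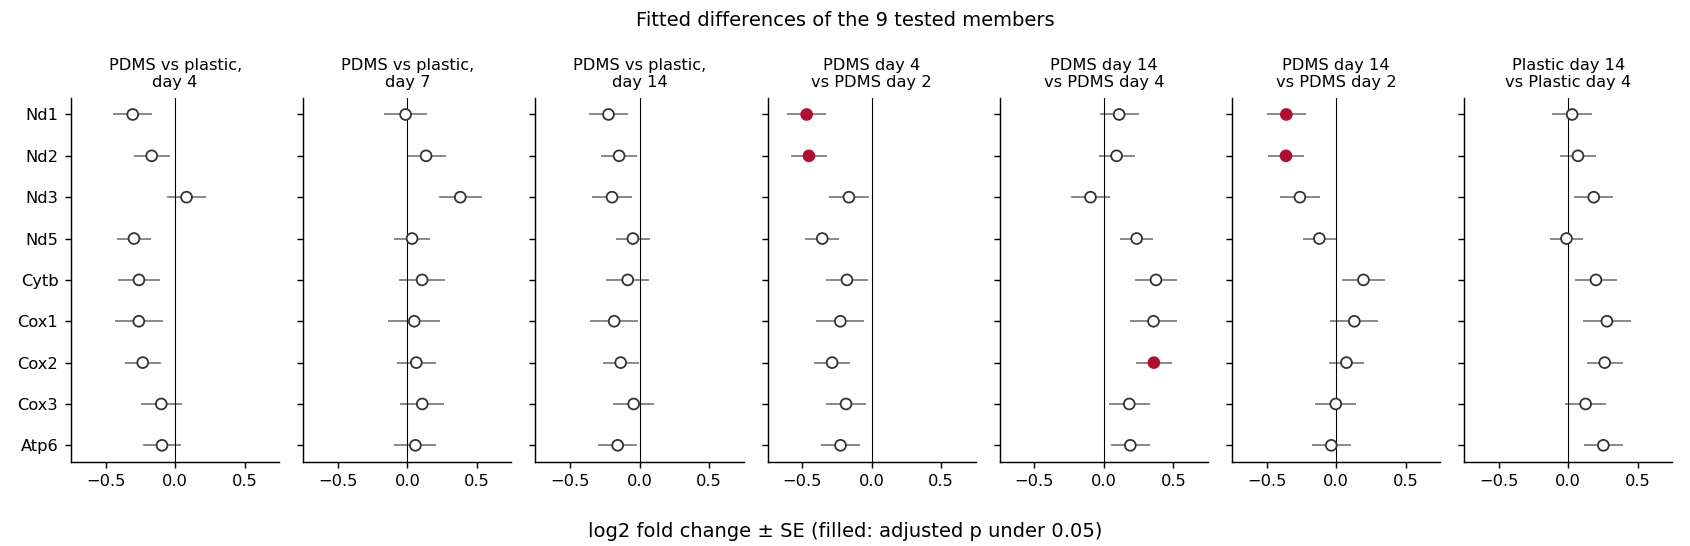
Fitted log2 fold change (horizontal axis, with SE) of the 9 tested members for 7 comparisons, the first-named group over the second. Filled points passed an edgeR adjusted p under 0.05: Nd1 and Nd2 in PDMS day 4 and in PDMS day 14 against PDMS day 2, and Cox2 in PDMS day 14 against PDMS day 4.

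The make-up of the mitochondrial counts differed between early and late days, in a measure that needs no scaling between libraries. Since read numbers also depend on transcript length, for which no reference was at hand, each gene's part is compared between groups only, not between genes. Together Nd1 and Nd2 took 14.4% ± 1.59, 12.5% ± 0.75, 10.8% ± 0.70 and 11.1% ± 0.63 of the members' counts on PDMS days 2, 4, 7 and 14 (SD, n = 4 each). They took 12.7% ± 0.72, 10.8% ± 1.03 and 11.3% ± 0.56 on Plastic days 4, 7 and 14 (SD, n = 4, 3 and 4). At each shared day the substrates differed by less than 1 SD.

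By library, in the order of replicates, this part was 14.5%, 16.6%, 13% and 13.4% for PDMS day 2, then 13.2%, 13.2%, 12.2% and 11.7% for PDMS day 4, then 9.76%, 11.3%, 11.1% and 11% for PDMS day 7, and finally 11.5%, 10.6%, 11.7% and 10.5% for PDMS day 14. It was 13.3%, 13.2%, 11.9% and 12.3% for Plastic day 4, then 9.94%, 10.6% and 12% for Plastic day 7 (replicates 1, 3 and 4), and finally 10.6%, 11.6%, 11.2% and 11.9% for Plastic day 14. The PDMS day 2 libraries lay above all those of PDMS day 7, Plastic day 7, PDMS day 14 and Plastic day 14. PDMS day 4 and PDMS day 7 did not overlap, while on plastic each later day overlapped with day 4. PDMS day 4 replicate 1, the library with the lowest summed share, was at 13.2% among the higher of its group. Nd1 and Nd2 were put together after their values had been seen, so this part is a description and has no test. Parts of other members shifted as well. From PDMS day 2 to PDMS day 7, Nd5 went from 3.86% ± 0.29 to 3.21% ± 0.10. Over the same days Cox1 went from 33.7% ± 1.35 to 37.6% ± 2.00, while Cox3 stayed at 10.4% (SD, n = 4 each). Since all parts share a total, a rise in one lowers the others.

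The TMM factors differed between days. They were 1.03 to 1.18 for PDMS day 2, 0.963 to 0.991 for PDMS day 14 and 0.879 to 0.925 for Plastic day 14. They cancel in these percentages.

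**Figure D3:**
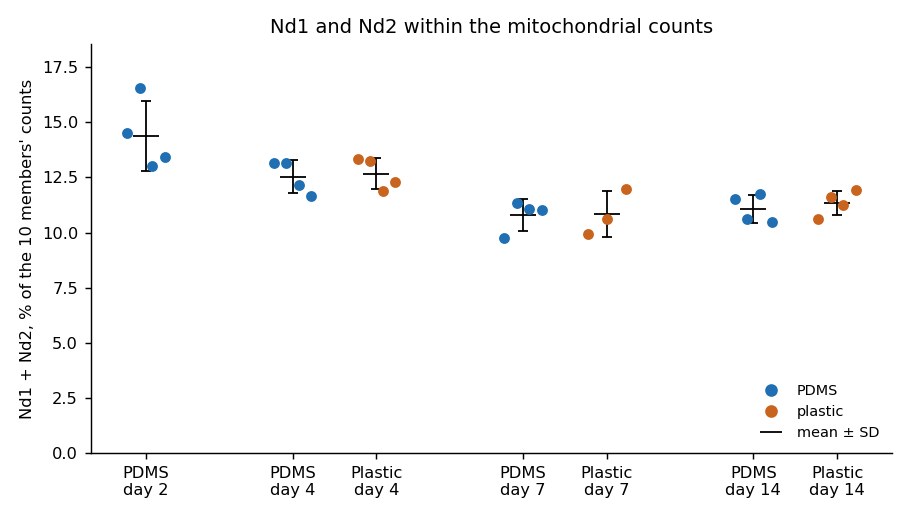
Counts of Nd1 and Nd2 as a percent of the 10 members' counts (vertical axis, from 0) for each library, with days from left to right and PDMS left of plastic. Points are libraries and bars are means ± SD. The mean is 14.4% at PDMS day 2, 12.5% on PDMS and 12.7% on plastic at day 4, and between 10.8% and 11.3% at days 7 and 14.

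The members of complexes III, IV and V had wide ranges, and whether groups overlapped differed between genes. Over the 27 libraries Cytb ran from 1569 to 3291 CPM, Cox1 from 3636 to 9129 CPM, Cox3 from 1293 to 2466 CPM and Atp6 from 1753 to 3237 CPM. In each of these 4 genes the lowest library was PDMS day 4 replicate 1. The highest was PDMS day 14 replicate 4 for Cytb, Cox3 and Atp6, and Plastic day 7 replicate 1 for Cox1. Cox3, a core subunit of cytochrome c oxidase, and Atp6, the proton-channel subunit of ATP synthase, were called by edgeR in none of the 8 comparisons.

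By group, Cytb averaged 2263 ± 269, 2000 ± 367, 2728 ± 222 and 2594 ± 497 CPM at PDMS days 2, 4, 7 and 14 (SD, n = 4 each), and 2396 ± 335 (n = 4), 2534 ± 219 (n = 3) and 2751 ± 276 CPM (n = 4) at Plastic days 4, 7 and 14. Cox1 averaged 6428 ± 502, 5496 ± 1380, 7651 ± 348 and 7040 ± 1209 CPM on PDMS and 6588 ± 497, 7392 ± 1505 and 7989 ± 581 CPM on plastic, over the same days and numbers of libraries. Both genes had their lowest mean at PDMS day 4 and their highest at Plastic day 14. Atp6 averaged 2661 ± 310, 2277 ± 425, 2637 ± 194 and 2597 ± 432 CPM on PDMS and 2431 ± 221, 2533 ± 44 and 2896 ± 182 CPM on plastic. Cox3 averaged 1972 ± 155, 1734 ± 366, 2112 ± 171 and 1968 ± 334 CPM on PDMS and 1859 ± 254, 1960 ± 147 and 2027 ± 158 CPM on plastic. For Cox3 and Atp6 the libraries of PDMS day 4 overlapped with those of every other group. For Cytb, Cox1 and Cox2 they lay below all those of PDMS day 7. The ranges were 1569 to 2453 against 2527 to 3034 CPM for Cytb and 3636 to 6932 against 7154 to 7898 CPM for Cox1. For Cox2 they were 1360 to 2016 against 2244 to 2331 CPM. Cox1 at Plastic day 14, at 7187 to 8534 CPM, also lay above PDMS day 4. So did Cox2 at Plastic day 14, at 2396 to 2689 CPM, and at Plastic day 7, at 2027 to 2451 CPM. These pairs of groups were not tested. How many of all genes separate in the same way was not counted, so this separation is not read as particular to the members.

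**Figure D4:**
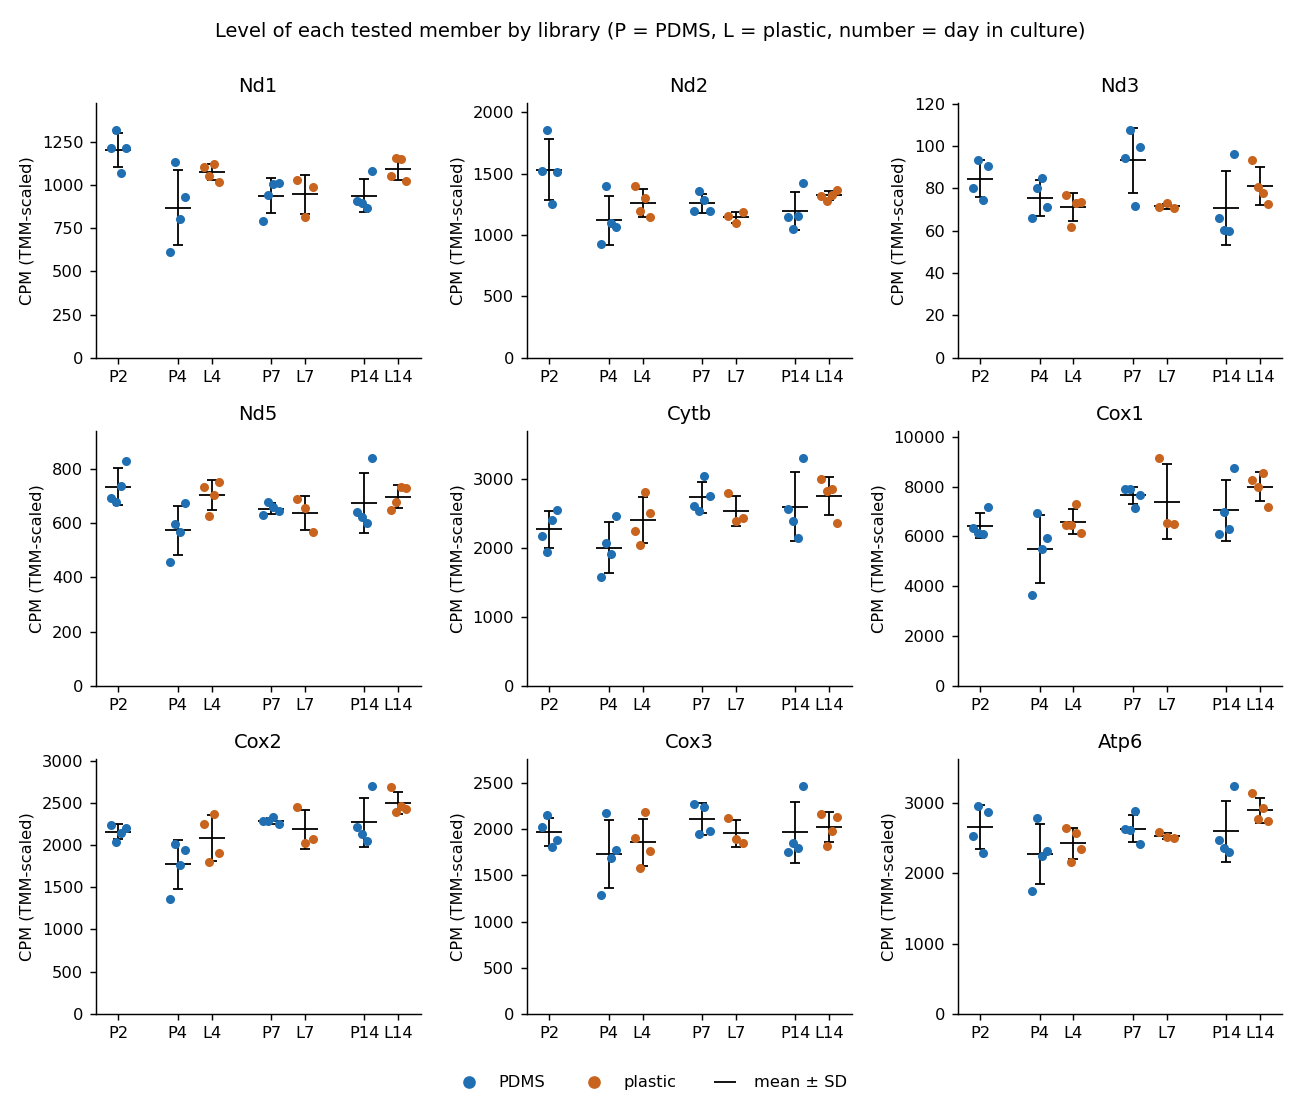
Level in CPM (vertical axes, from 0, TMM-scaled) of the 9 tested members in each library, with PDMS (P) left of plastic (L) at each day. Points are libraries and bars are means ± SD. Nd1 and Nd2 are highest at PDMS day 2, and PDMS day 4 replicate 1 is the lowest library in 8 of the 9 panels.

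The members varied together from library to library, to different degrees. Over the 27 libraries the Pearson correlation of log2 CPM between members ran from 0.17 to 0.90 in 36 pairs, with a median of 0.61. It was 0.90 for Cox1 with Cox2 and 0.83 for Nd1 with Nd2, but 0.17 for Nd2 with Cytb and 0.37 for Nd1 with Cytb. After removing the group means the correlations ran from 0.18 to 0.86, with a median of 0.65. The values of a library share its depth and scaling, so these are descriptions. The biological coefficient of variation of the members was 0.142 to 0.175, below the median of 0.243 over all tested genes, which also include genes with few counts.

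Among the 14249 other tested IDs, ENSRNOG00000031053 was most like the members' mean log2 CPM, with a Pearson r of 0.80 over the 27 libraries. ENSRNOG00000033299 followed at 0.69, ENSRNOG00000012027 at 0.68 and ENSRNOG00000000157 at 0.66. Of these, ENSRNOG00000012027 was little counted, with a mean log2 CPM of -0.17 against 5.55 to 5.98 for the others. These genes are given by ID because nothing at hand pairs them with a name.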

How the data were processed

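The raw counts deposited by the authors are whole reads for each Ensembl rat gene ID, in a table of 28 columns. Of these, 27 match a listed sample by its label, and 1 matches none and was not used. Per the series' design text Cufflinks was used to quantify expression, and the submitters' processing notes name FastQC 0.11.2, STAR, Cufflinks 2.2.1 and DESeq2 without roles. Not given in the sources used here are the counting program, its treatment of reads that match several places, the genome build and the annotation. Copies of mitochondrial DNA exist in nuclear genomes, so such reads may have been lost or shared. The library kit named in the labels does not mark strand, so reads from a gene and from its antisense strand cannot be told apart. Deposited depth-scaled and variance-stabilized tables were not used. Library input was 200 ng of total RNA.

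Low genes were removed with filterByExpr (minimum count 10, minimum total 15), leaving 14258 genes with 9 of the 10 members. All 27 libraries were fitted at once with edgeR 4.0.16 in R 4.3.3, using TMM scaling, 1 mean per group and 20 residual degrees of freedom. Contrasts were tested by the two-sided quasi-likelihood F test with Benjamini-Hochberg adjustment over all tested genes. An SE is the log2 fold change divided by the root of its F. CPM uses TMM-scaled library sizes, and log2 CPM adds a prior count of 2. Alternatives were DESeq2 1.42.0, limma-voom (limma 3.58.1), other scaling, no filter, only the compared groups, the replicate block and left-out libraries. The fit was tested on simulated data.

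The IDs, symbols and comparisons were chosen with earlier results of these data known. Named genes are all members and the 4 other IDs with the highest correlation to the members' mean. Lists of nuclear-encoded subunits, mitochondrial transcription and biogenesis genes and cell type markers were set as symbols, and since nothing at hand pairs symbols with the IDs, 0 of these genes were looked up. No sequence of the members was at hand. The labels do not say what replicate numbers mark. In PDMS day 4 against PDMS day 2, deviations from the group means correlated at 0.14 to 0.57 in all 4 same-numbered pairs, while pairs of other numbers reached 0.43. Of the 4 PDMS day 4 libraries, only 1 correlated best with the PDMS day 2 library of its own number, so a pairing is uncertain. In every other comparison at least 1 same-numbered pair was below 0.1. The edgeR calls are from the fit without a block, except where the block is named.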

Additional observations from a re-analysis of the deposited data

Results flagged for a closer look

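Of 66 sets of 4 libraries examined over the summed share, the part of Nd1 and Nd2 and the CPM of the 9 tested members, 1 had a library far from the others, where chance gives about 3.3. It was Cox3 in PDMS day 14 replicate 4, at 2466 CPM, with the others of its group at 1756 to 1858 CPM.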

How the results depend on the processing

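Calls near the threshold changed with single libraries and with the fit, and the causes were not tested. Of the alternatives for counts of calls and summed shares, 309 stayed close and 68 moved. Of 700 alternatives for 39 member values, 619 kept direction and call. That total includes values that were not called, and the calls themselves held less often. Of 17 alternatives each, PDMS day 4 against day 2 kept the call in 8 for Nd1 and 11 for Nd2. PDMS day 14 against day 2 kept it in 8 for Nd1 and 10 for Nd2. PDMS day 14 against day 4 kept it in 9 for Cox2. DESeq2 called 38 genes between substrates at day 4, 766 at day 7 and 114 at day 14, 2411 genes and 4 members for PDMS day 4 against PDMS day 2, 2 members for PDMS day 14 against PDMS day 4 and 4 genes for the interaction, and limma-voom called 42 genes at day 7 and 2 at day 14. Summing the closely alike libraries gave 35 genes at day 7, 1 member for PDMS day 4 against day 2, 2375 genes on plastic and an Nd2 interaction of -0.00090. No filter gave 75 genes at day 7, 1 member for PDMS day 4 against day 2, 0 for day 14 against day 4 and 1 for day 14 against day 2. Fitting only the groups compared gave 273 genes at day 7, 0 genes and 0 members for PDMS day 4 against day 2, 0 members for day 14 against day 4, 0 for day 14 against day 2, 2519 genes on plastic and an Nd5 change there of 0.0066. The replicate block gave 2 genes between substrates at day 14, 3 members for PDMS day 4 against day 2 and 0 members for PDMS day 14 against day 4, and changed no other member's call. Library size in place of TMM gave 60 genes at day 7, 8 at day 14, 3 members for PDMS day 4 against day 2 and 0 members for PDMS day 14 against day 4.

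It also turned Nd1 at day 7 to 0.11, Cox3 at day 14 to 0.062, Nd1 and Nd2 in PDMS day 14 against day 4 to -0.0100 and -0.029, Cox1 and Cox2 in PDMS day 14 against day 2 to -0.025 and -0.080, and Nd1 and Nd2 on plastic to -0.13 and -0.10. It moved the rises among the called genes to 41.7% in place of 17.4% at day 7, 32.1% in place of 46.8% for PDMS day 14 against day 4 and 27.1% in place of 43.9% on plastic. With TMM-scaled denominators the difference in summed share was 0.095 percentage points at day 7 and 0.289 for Plastic day 14 against day 4.

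Leaving out 1 library at a time, genes called between substrates ran from 0 to 245 at day 4 (the highest without Plastic day 4 replicate 3), from 0 (without PDMS replicate 1, 2 or 4 or Plastic replicate 1) to 193 (without Plastic replicate 3) at day 7, with 31 without Plastic replicate 4, and from 0 to 88 at day 14 (the highest without Plastic replicate 4, and 6 without PDMS replicate 2). They ran from 56 (PDMS day 2 replicate 1 left out) to 3307 (PDMS day 2 replicate 4 left out) for PDMS day 4 against day 2, with 757 and 489 without PDMS day 2 replicates 2 and 3 and 431, 476 and 238 without PDMS day 4 replicates 1, 3 and 4, from 2590 (PDMS day 4 replicate 1 left out, and 2617 with PDMS day 14 replicate 3 left out) to 3848 (PDMS day 4 replicate 4 left out) for PDMS day 14 against day 4, and from 3075 (without Plastic day 4 replicate 2) to 5319 (without replicate 3) on plastic. Members called ran from 0 to 2, 0 to 2 and 0 to 3 in the PDMS comparisons of day 4 with day 2, day 14 with day 4 and day 14 with day 2, and from 0 to 1 on plastic. The log2 values that crossed 0 ran from -0.11 to 0.10 for Nd1 at day 7, -0.17 to 0.0089 for Cox3 at day 14, -0.0078 to 0.30 for Nd1 and -0.0023 to 0.25 for Nd2 in PDMS day 14 against day 4, -0.018 to 0.13 for Cox2 in PDMS day 14 against day 2, -0.066 to 0.045 for Nd5 on plastic, and -0.072 to 0.24 for Nd1, -0.079 to 0.15 for Nd2 and -0.025 to 0.17 for Cox2 in the interaction. In PDMS day 14 against day 4, Cytb was called without PDMS day 4 replicate 4 and Cox1 without replicate 2, and in day 14 against day 2, Nd3 without PDMS day 14 replicate 4.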
